A study of Rattus norvegicus with 13 samples.

Results

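Actins and the proteins that bind actin filaments were followed here in the ventricular zone (VZ) of newborn rats, through 10 genes taken by name: the cytoplasmic actins *Actb* and *Actg1*, the filament severing protein *Cfl1*, the monomer binding proteins *Pfn1*, *Pfn2*, *Tmsb4x* and *Tmsb10*, the cross-linking actinins *Actn1* and *Actn4*, and the adhesion protein vinculin (*Vcl*). Of these, 9 had a row among the 13129 gene names of the deposited table, and *Tmsb4x* was skipped because no row carried its name. *Actg1* had 2 rows and the one with the higher mean was used. Each member row has an Ensembl transcript identifier. Whether its value covers 1 transcript or the whole gene was not tested.

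The samples were posterior ventricular epithelium, cut out by laser from male Long Evans pups on postnatal day 2. There were 7 euthyroid control pups, whose dams drank vehicle (0 ppm), and 6 hypothyroid pups of dams given 3 ppm propylthiouracil (PTU, a drug that blocks thyroid hormone synthesis) in the drinking water. All 13 pups came from different litters, so the litter is the unit of replication. The question was which transcripts of the VZ differ when thyroid hormone is low.

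Actin monomers assemble into filaments that give cells their shape, pull on adhesion sites and drive migration. In the VZ, a belt of filaments lies below the apical junctions of radial glia, the progenitors whose processes guide newborn neurons. Profilins deliver monomers to growing filament ends, beta-thymosins hold monomers in reserve, cofilin cuts and disassembles old filaments, actinins bundle them, and vinculin ties them to integrin and cadherin adhesions.

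All values below are normalized counts, that is reads estimated per row and divided by a size factor for each pup. Between 22292421 and 44383053 reads per pup were estimated to lie behind the table, and the members had at least 819 estimated reads in every pup. The 3 highest rows, none of them named, held from 23.9 to 60.1% of the estimated reads of a pup. Progenitor markers were used to check the label, and none of the 10 was at 0 in every pup. Their summed normalized counts ran from 75130 to 104572 in control pups and from 62176 to 82649 in PTU pups, with all 10 lower in mean and 6 of them at an unadjusted p under 0.05 in limma. The 12 neuron markers were all higher in mean after PTU exposure, 6 of them at an unadjusted p under 0.05, with sums from 56593 to 82109 in control pups and from 74222 to 133220 in PTU pups. The 8 choroid plexus markers with a row were all lower in mean, 5 at an unadjusted p under 0.05, with sums from 49075 to 138285 and from 22949 to 98180. Sums of the endothelial, smooth muscle and pericyte, microglial, meningeal, oligodendrocyte and ependymal markers overlapped between the groups too. At an unadjusted p under 0.05, 2 of 4 ependymal markers (median sum 1915 against 1198), 2 of 8 smooth muscle and pericyte markers and 1 of 8 microglial markers were lower, 1 of 5 oligodendrocyte markers was higher, and 0 endothelial or meningeal markers reached that level. The progenitor, neuron and choroid plexus sums overlapped as well, and no marker with a row was at 0 in every pup. What part these shifts have in the results below was not tested beyond the values given.

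The balance of the 2 cytoplasmic actins leaned to *Actg1* in PTU pups, by a difference whose call depended on single pups and on the normalization. *Actb* (beta-actin, widely used as a reference transcript) had nearly equal means in both groups, whereas *Actg1* (gamma-actin) was about 1.21 times as high in PTU pups. *Actb* spanned 72224 to 100150 normalized counts among controls, around a median of 94818, and 87062 to 101475 among PTU pups, around a median of 88729. The groups overlapped almost fully, and the lowest value belonged to control pup 5. The means were 90580 ± 10587 (SD, n = 7) and 91275 ± 5674 (SD, n = 6), a log2 fold change of 0.018 (95% interval from -0.22 to 0.26, limma adjusted p = 0.951). The interval reaches well to either side of 0, so equality of the groups is not shown. The value also moved with the scaling, to 0.15 with quantile normalization and 0.22 with the pups set to an equal total over all rows. The equal total moved the median of all rows to 0.20 as well.

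*Actg1* spanned 14831 to 18634 normalized counts among controls, around a median of 16833, and 17809 to 21787 among PTU pups, around a median of 20544. Of the 6 PTU pups, 5 lay above the highest control pup, and the exception was PTU pup 2. The means were 16779 ± 1158 (SD, n = 7) and 20264 ± 1377 (SD, n = 6). The log2 fold change was 0.27 (SE 0.08, 95% interval from 0.11 to 0.44), with an unadjusted p of 0.0026 and an adjusted p of 0.146 in limma over the 14606 rows tested. Exact permutation over all 1716 splits of the pups (two-sided) returned an unadjusted p of 0.00175 and an adjusted p of 0.175 over the same rows. *Actg1* therefore did not pass the threshold of 0.05 after adjustment. In bulk tissue, fewer cells of a type and less RNA per cell cannot be told apart, which holds for every difference given here. *Actb* and *Actg1* are similar in their coding sequence, and the model that assigns reads to transcripts may divide reads between them where they match. Its effect on their levels was not tested.

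The further *Actg1* row, with low values, split the PTU pups. It had from 81.6 to 256 normalized counts in control pups. PTU pups 4, 5 and 6 had 749, 541 and 643, whereas PTU pups 1, 2 and 3 had 175, 69.5 and 154. Thus 3 PTU pups lay above every control pup and 1 below every control pup, and the log2 fold change of 0.80 (SE 0.48, limma adjusted p = 0.41) was within the spread.

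A ratio of 2 rows in 1 pup does not depend on the size factor of that pup, so the balance of the 2 actins was compared directly, although a normalization that reshapes the values of a pup can still change it. The *Actb* to *Actg1* ratio lay between 4.79 and 5.95 in controls, around a median of 5.45, and between 4.08 and 5.70 in PTU pups, around a median of 4.39. In 5 of 6 PTU pups it was below every control pup, at 4.08 to 4.50, and in PTU pup 2 it was 5.70, within the control range. On the log2 scale the 7 controls averaged 2.43 ± 0.12 (SD) and the 6 PTU pups 2.17 ± 0.17 (SD). The difference was -0.25 on the log2 scale (95% interval from -0.44 to -0.07, two-sided exact permutation p = 0.014, adjusted p = 0.042 over the 3 ratios tested). The call was lost when any 1 of 10 pups was left out, namely control pups 1, 2, 3, 4 and 6 and every PTU pup but pup 2 (exact permutation, adjusted p from 0.0584 to 0.0833, differences from -0.257 to -0.226). It was kept without control pup 5, control pup 7 or PTU pup 2 (adjusted p = 0.039, 0.0325 and 0.0076). With the replicate numbers as a block the adjusted p was 0.0938 (-0.28, exact sign-flip p = 0.0312, the smallest that 6 pairs allow). With the other ratios at a sign-flip p of 0.4375, the block could not have kept the call. With quantile normalization, chosen for the ratios after seeing the data, the difference was -0.092 (exact permutation p = 0.602, adjusted p = 0.602). Expressed as a share, *Actg1* made up from 14.4 to 17.3% of the normalized counts of both actins in control pups and from 14.9 to 19.7% in PTU pups. Since *Actg1* was known to be higher in these pups when the ratio was chosen, the ratio is not independent evidence for its direction. PTU pup 1, with the lowest ratio (4.08), had the highest neuron marker sum (133220). PTU pups 3, 5 and 6 (ratios 4.38, 4.15 and 4.50) had sums of 92403, 88348 and 105729, above the highest control pup (82109). PTU pup 4 (ratio 4.39) and PTU pup 2 (ratio 5.70) had sums of 74222 and 77130, within the control range. The part of neuron content in the ratio was not tested.

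**Figure D1:**
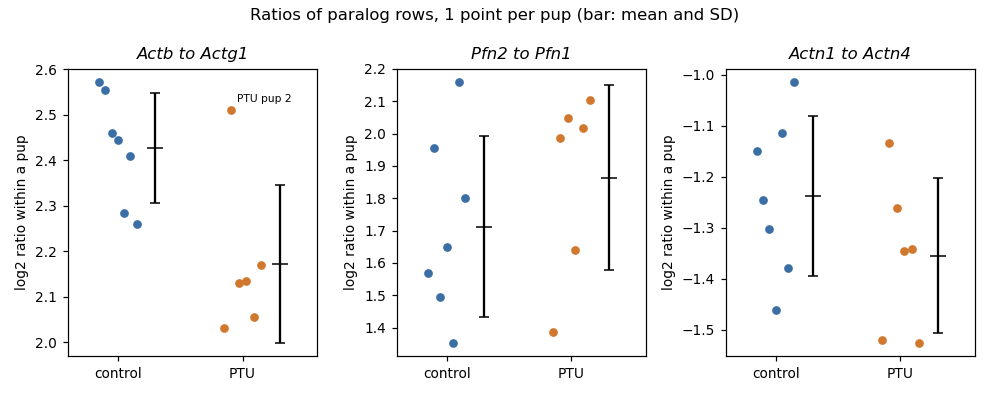
Ratios of paralog rows within each pup on a log2 scale, for *Actb* to *Actg1*, *Pfn2* to *Pfn1* and *Actn1* to *Actn4*, with 1 point per pup (7 control, 6 PTU) and a bar for the mean and SD. In the left panel 5 of 6 PTU pups sit below every control pup and PTU pup 2 (linear ratio 5.70) does not, while the other panels overlap.

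Cofilin 1 and the beta-thymosin were the other members with a difference at the level of single tests. *Cfl1* spanned 13895 to 16392 normalized counts among controls, around a median of 14578, and 15327 to 19847 among PTU pups, around a median of 17022. All 6 PTU pups were above the control mean, and 3 were above every control pup. The means of 14985 ± 1012 (SD, n = 7) and 17235 ± 1729 (SD, n = 6) gave a log2 fold change of 0.20 (SE 0.08, unadjusted p = 0.0258, limma adjusted p = 0.251).

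*Tmsb10* had the largest fold change among the member rows used. It spanned 1936 to 3547 normalized counts among controls, around a median of 2918, and 3352 to 4767 among PTU pups, around a median of 3907. Every PTU pup was above 6 of the 7 control pups, 4 were above all of them, and control pup 5 was the lowest of all. The means were 2905 ± 506 (SD, n = 7) and 3958 ± 553 (SD, n = 6), a log2 fold change of 0.46 (SE 0.12, 95% interval from 0.20 to 0.72, unadjusted p = 0.0017, limma adjusted p = 0.134). By exact permutation (two-sided) the unadjusted p was 0.0035 and the adjusted p 0.178. The balance of *Tmsb10* against *Tmsb4x* was not analysed here.

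The sequences just before the transcription start of *Tmsb10*, *Actg1* and *Cfl1* are shown because these had the 3 smallest p-values of the members. They are the 120 bases before the start of the RefSeq genes (GRCr8, not the build the reads were aligned to), at chr4:106569141-106569260 on the minus strand, chr10:106120952-106121071 on the minus strand and chr1:212227004-212227123 on the plus strand, written 5′ to 3′. Capitals mark the motifs searched on both strands: the CArG box bound by serum response factor, the GC box (GGGCGG or CCGCCC), the CCAAT box (CCAAT or ATTGG) and the TATA box (TATAAA or TTTATA).
Tmsb10: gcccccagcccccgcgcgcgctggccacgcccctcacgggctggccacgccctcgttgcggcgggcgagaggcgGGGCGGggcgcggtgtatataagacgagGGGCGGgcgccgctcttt
Actg1: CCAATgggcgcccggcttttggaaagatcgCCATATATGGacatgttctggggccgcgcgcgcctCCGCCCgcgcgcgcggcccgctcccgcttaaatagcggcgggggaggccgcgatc
Cfl1: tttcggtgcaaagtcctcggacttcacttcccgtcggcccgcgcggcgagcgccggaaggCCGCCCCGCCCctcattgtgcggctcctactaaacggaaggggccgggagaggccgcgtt

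In the window of *Actg1* the CArG box lies 90 to 81 bases before the start, and a GC box lies 55 to 50 bases before it. *Tmsb10* has 2 GC boxes here and *Cfl1* has 2 that overlap by 1 base. RefSeq promoters (250 bases before the start and 50 after) were found for 7 of the 9 members, not for *Actb* and *Actn4*. Of these 7, 1 held a CArG box, that of *Actg1*, against 1.64% of 33469 promoters. All 7 held a GC box, against 33.1% of all promoters. A CCAAT box was in 4 of the 7 (37.5% of all). A TATA box, as the exact letters TATAAA or TTTATA, was in 0 of the 7 (14.2% of all). Other forms of the TATA box, such as the tatataag in the window of *Tmsb10*, were not searched. A match describes letters only and is not a site of binding. *Srf*, the gene of serum response factor, had a control mean of 960 ± 117 normalized counts (SD, n = 7) and a PTU mean of 982 ± 85.9 (SD, n = 6) (log2 fold change 0.04, limma adjusted p = 0.88). Its actin-sensing cofactors *Mrtfa* and *Mrtfb* differed by 0.14 and 0.03 on the log2 scale (limma adjusted p = 0.679 and 0.925).

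The profilins differed by less than the spread between pups. *Pfn1* spanned 2309 to 2733 normalized counts among controls, around a median of 2556, and 2390 to 2999 among PTU pups, around a median of 2631. The PTU pups were split, with pups 1, 2 and 4 above every control pup and the remaining 3 within the control range. Its log2 fold change was 0.07 (95% interval from -0.10 to 0.23, limma adjusted p = 0.685). *Pfn2*, the profilin that is abundant in neural tissue, ranged from 5897 to 11430 (median 8221) and from 7342 to 11527 (median 9918), with a log2 fold change of 0.22 (95% interval from -0.05 to 0.49, adjusted p = 0.4). The *Pfn2* to *Pfn1* ratio had a median of 3.14 in controls and 4.01 after PTU exposure, and overlapped between the groups (difference of 0.15 on the log2 scale, 95% interval from -0.19 to 0.50, two-sided exact permutation p = 0.344, adjusted p = 0.344).

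The members that bundle filaments or anchor them at adhesions had lower means in PTU pups, by differences that also lay within the spread. *Actn1* spanned 1528 to 2161 normalized counts among controls, around a median of 1850, and 1432 to 2055 among PTU pups, around a median of 1613. Here 5 of 6 PTU pups were below the control mean and PTU pup 2 was not (log2 fold change -0.19, 95% interval from -0.40 to 0.02, limma adjusted p = 0.354). *Actn4* ranged from 3994 to 5124 (median 4441) and from 3970 to 4508 (median 4168), a log2 fold change of -0.07 (95% interval from -0.22 to 0.08, adjusted p = 0.639). The *Actn1* to *Actn4* ratio differed by -0.12 on the log2 scale (95% interval from -0.31 to 0.07, two-sided exact permutation p = 0.195, adjusted p = 0.292).

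*Vcl* spanned 1038 to 1735 normalized counts among controls, around a median of 1535, and 1127 to 1557 among PTU pups, around a median of 1209. Control pups were widely spread, with 3 of 7 above every PTU pup and 2 below all of them. In PTU pups, 5 lay between 1127 and 1227 and PTU pup 1 stood apart at 1557. The log2 fold change was -0.16 (95% interval from -0.43 to 0.11, limma adjusted p = 0.552). The lower means of *Actn1*, *Actn4* and *Vcl* turned to 0.01, 0.13 and 0.04 when the pups were set to an equal total over all rows, which includes the 3 highest rows and shifts the median of all rows to 0.20.

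**Figure D2:**
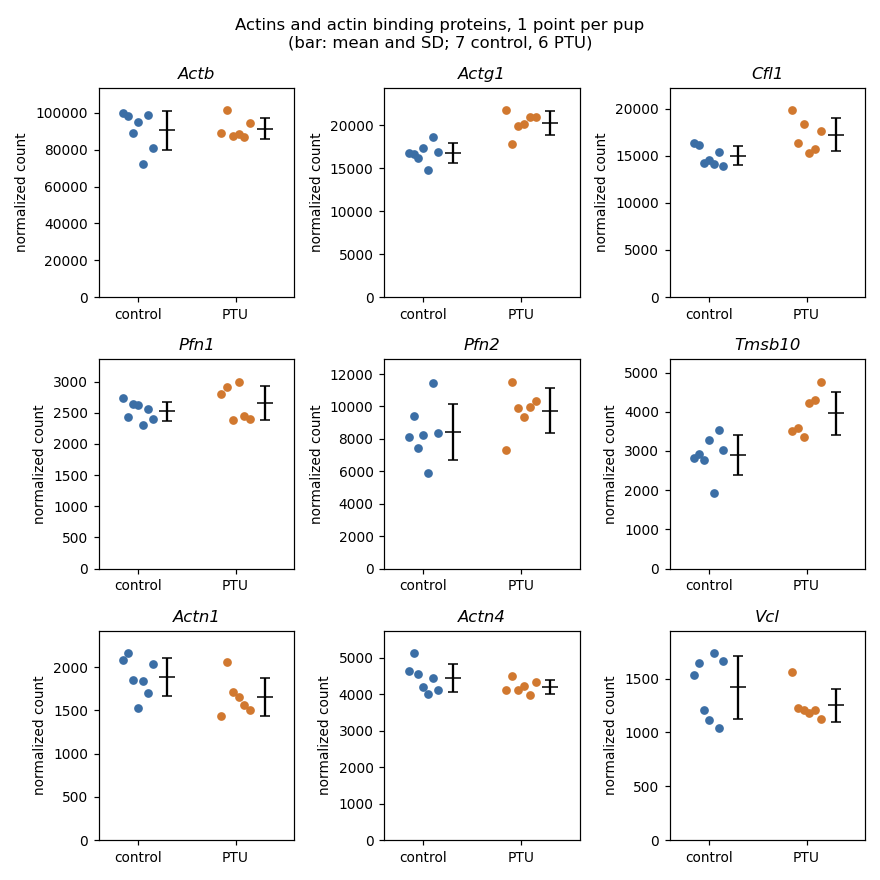
Normalized counts of the 9 members in 7 control and 6 PTU pups, with 1 point per pup and a bar for the mean and SD on axes that start at 0. The groups overlap in every panel, and *Actg1* and *Tmsb10* show the least overlap.

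Across the 9 member rows, all of which passed the filter on low values, 6 had a higher and 3 a lower mean in PTU pups. Limma called 0 of the 9 at an adjusted p of at most 0.05, where it called 0% of all 14606 rows, and so did the exact permutation test. At an unadjusted p under 0.05, limma had 3 members (*Tmsb10*, *Actg1* and *Cfl1*), all higher in PTU pups, against 16.3% of all rows (8.11% higher, 8.2% lower), and the permutation test likewise had 3 members against 15.3%. *Tmsb10* and *Actg1* stayed at this level under all 25 alternatives in limma and *Cfl1* under 20. For *Cfl1* the unadjusted p was 0.0521 with the replicate block, 0.0819 with an equal total over all rows, and 0.051, 0.0686 and 0.0567 without control pup 7, PTU pup 1 or PTU pup 3. The groups did not overlap in 0 members and in 0.596% of all rows. The median log2 fold change was 0.07 over the members and 0.0038 over all rows.

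**Figure D3:**
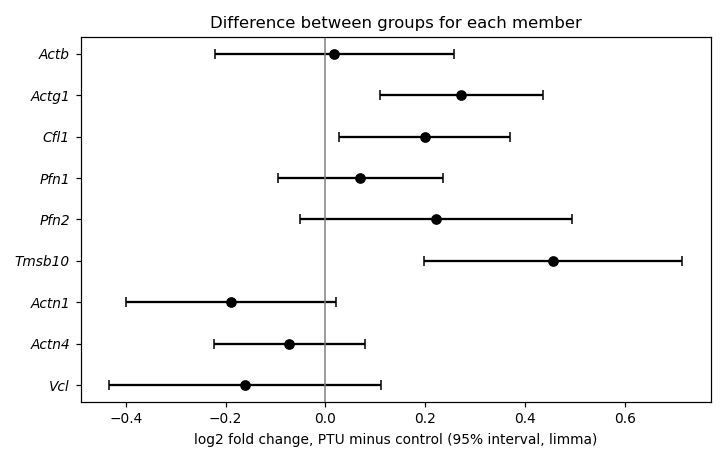
Log2 fold change of each member in PTU against control pups (points) with the 95% interval from limma (bars). The intervals of *Tmsb10*, *Actg1* and *Cfl1* lie above 0, whereas those of the other 6 members include 0.

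The members also differed in how much they varied between pups of 1 group. The pooled coefficient of variation within groups was 6.85% for *Actg1*, 7.08% for *Actn4*, 8.28% for *Pfn1*, 8.40% for *Cfl1* and 9.60% for *Actb*. It was 12.6% for *Actn1*, 15.9% for *Tmsb10*, 17.3% for *Vcl* and 17.8% for *Pfn2*, where the median was 12.7% over the 4506 rows whose mean reached 1000. Of these rows, 4.53% varied less than *Actg1* and 23.9% less than *Actb*.

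With the group means removed, *Actb* varied together with *Actn4* over the 13 pups, at r = 0.76 and rho = 0.83 (permutation p = 0.0095 and 0.001, adjusted over 36 pairs 0.16 and 0.0374), and at r = 0.65 without the 2 pups farthest from the median of *Actb*. *Actg1* and *Tmsb10* had r = 0.71 and rho = 0.66 (permutation p = 0.0133 and 0.0219, adjusted 0.16 and 0.2), and r = 0.48 without the 2 farthest pups. *Actb* and *Actg1* themselves had r = 0.31 and rho = 0.12 (permutation p = 0.329 and 0.722, adjusted 0.624 and 0.896), and r = 0.29 without the 2 farthest pups. Of the 36 pairs, 22 had a positive and 14 a negative r. *Actg1* and *Actn1* had r = -0.62 and rho = -0.70 (permutation p = 0.0359 and 0.0144, adjusted 0.216 and 0.2), and r = -0.63 without the 2 farthest pups. *Tmsb10* and *Vcl* had r = -0.63 and rho = -0.64 (permutation p = 0.0216 and 0.0222, adjusted 0.185 and 0.2), and r = -0.39 without the 2 farthest pups. By Pearson's r, 0 of the 36 pairs passed an adjusted p of 0.05 and 6 had an unadjusted p under 0.05. Those of the 6 not named above were *Actb* with *Pfn2* (r = 0.71, permutation p = 0.0124, adjusted 0.16) and *Pfn2* with *Tmsb10* (r = 0.68, permutation p = 0.0257, adjusted 0.185). Without the 2 farthest pups these had r = 0.46 and 0.23. All rows of a pup share 1 size factor, which can make them vary together.

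Among 11086 named rows with a mean of at least 100, those most like *Actb* over the 13 pups, with group means removed, were *Oga* (r = 0.94), *Vps33b* (r = 0.93), *Lcp1* (r = 0.92), *Tpm4* (r = 0.90) and *Cep192* (r = 0.89). *Lcp1* encodes a filament bundling protein and *Tpm4* a tropomyosin. Most like *Actg1* were *Tp53bp1* (r = 0.94), *Asxl3* (r = 0.93), *Arhgap33* (r = 0.90), *Abhd17c* (r = 0.90) and *Amer3* (r = 0.89). They are the highest of all rows searched and were given no test.

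Other genes of the actin system were read from the same fit, in 8 lists with 135 genes, of which 119 were tested. Limma called 0 of them, and 24 (20.2%) had an unadjusted p under 0.05, 9 higher and 15 lower in PTU pups, against 16.3% of all rows. With the pups set to an equal total over all rows the count was 10 (8.4%), all of them higher, and the share of all rows was 11.4% (10.8% higher, 0.555% lower). Without PTU pup 2 it was 37 (31.1%), against 20.5% of all rows. Without PTU pup 1 it was 17 (14.3%), against 14.3% of all rows. With the pups weighted by quality it was 23 (19.3%), against 19.5% of all rows.

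The partners of vinculin and actinin at adhesions leaned to lower values. Of 24 tested, 18 had a lower and 6 a higher mean, with a median log2 fold change of -0.11. At an unadjusted p under 0.05, 8 (33.3%) were lower, against 8.2% of all rows, and 2 were higher. *Sorbs3* (vinexin, a vinculin binding adaptor) had a control mean of 922 ± 99.4 normalized counts (SD, n = 7) and a PTU mean of 669 ± 158 (SD, n = 6), a log2 fold change of -0.48 (SE 0.13, limma adjusted p = 0.133). *Fermt2* (kindlin-2, an integrin activator) averaged 4266 ± 492 and 3356 ± 429, with all 6 PTU pups below the control mean (log2 fold change -0.35, adjusted p = 0.133). *Pdlim5*, a PDZ and LIM domain protein that binds actinin, averaged 1648 ± 306 and 1207 ± 153 (log2 fold change -0.44, adjusted p = 0.144). Without PTU pup 2, *Sorbs3* and *Fermt2* had adjusted p-values of 0.0252 and 0.0372 in limma. That setting called 179 of all 14606 rows and 3 of the 119 regulators. No regulator was called under any other alternative. With the pups set to an equal total over all rows, 15 of the 24 had a higher mean, with a list median of 0.09. That scaling moved the median of all rows to 0.20. Under it, the lower ones at an unadjusted p under 0.05 numbered 0, against 0.555% of all rows. The progenitor and choroid plexus markers given above had lower means in PTU pups, with sums that overlapped between the groups. Their part in these values was not tested.

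The Arp2/3 complex, which starts branches on existing filaments, was measured in all 10 listed subunits. The subunits split into 5 higher and 5 lower, with a median log2 fold change of 0.01. *Arpc4* averaged 2014 ± 169 normalized counts (SD, n = 7) without and 1756 ± 256 (SD, n = 6) with PTU (log2 fold change -0.21, limma adjusted p = 0.295), and it was the only subunit at an unadjusted p under 0.05 (1 of 10, against 16.3% of all rows). The count of lower subunits at an unadjusted p under 0.05 was 0 without control pup 1, 3, 4, 5 or 6 or PTU pup 3, 4 or 6. Without PTU pup 4 there were 2 higher at that level. *Arpc5* and *Actr3* differed by 0.27 and 0.18 on the log2 scale (limma adjusted p = 0.327 and 0.413).

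Of 25 nucleation promoting factors and formins, 3 (12%) were higher and 2 (8%) lower at an unadjusted p under 0.05, near the 8.11% and 8.2% of all rows. The higher count was 0 without control pup 3, 1 without control pup 6 or PTU pup 1, and 6 without PTU pup 2. *Fhod3*, a formin, was the one gene named here from these lists whose groups did not overlap, with all PTU pups below all control pups. The groups did not overlap in 0.596% of all rows, and the genes named here were picked for the smallest p-values of each list. *Fhod3* averaged 1110 ± 141 normalized counts (SD, n = 7) and 833 ± 61.1 (SD, n = 6), a log2 fold change of -0.41 (SE 0.10, limma adjusted p = 0.122). *Daam2*, another formin, had a log2 fold change of -0.44 (adjusted p = 0.174), and *Cyfip2*, a subunit of the WAVE complex that activates Arp2/3, one of 0.27 (adjusted p = 0.251).

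The lists for severing and recycling and for end capping had 2 higher transcripts each and 0 lower at an unadjusted p under 0.05, of 20 and 15 tested (10% and 13.3% higher, against 8.11% of all rows). For severing and recycling it was 4 higher and 1 lower without PTU pup 2, and 1 higher without control pup 1 or 2 or PTU pup 1, 4 or 5. *Gmfb*, which removes Arp2/3 from branches, averaged 2686 ± 181 and 3168 ± 350 normalized counts (log2 fold change 0.23, limma adjusted p = 0.186), and *Coro1a* and *Ssh2*, a phosphatase that activates cofilin, differed by 0.50 and 0.21 on the log2 scale (limma adjusted p = 0.272 and 0.34). *Add2*, an adducin that caps filaments and joins them to spectrin, averaged 1457 ± 233 and 2070 ± 429 (log2 fold change 0.50, limma adjusted p = 0.133). Its adjusted p was 0.0394 without PTU pup 2, where limma called 179 of all 14606 rows. *Add3* had a log2 fold change of -0.21 (adjusted p = 0.379). *Tmod2*, a tropomodulin that caps the slow growing end, had one of 0.29 (adjusted p = 0.208). The 12 neuron markers had higher means in PTU pups, with sums that overlapped between the groups. Their part in these values was not tested.

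Cross-linking and side binding proteins had 4 lower (20%) and 0 higher transcripts of 20 at an unadjusted p under 0.05, against 8.2% and 8.11% of all rows. The count was 0 lower and 1 higher with the pups set to an equal total over all rows, against 0.555% and 10.8% of all rows. It was 2 lower without PTU pup 1. There were 2 higher and 4 lower without PTU pup 2, 2 higher and 3 lower without PTU pup 4, and 2 higher and 6 lower with the replicate block. *Flnc*, a filamin, differed by -0.41 on the log2 scale (limma adjusted p = 0.186), and *Cald1* (caldesmon) by -0.29 (adjusted p = 0.242). Of the muscle actins, *Acta1* and *Acta2* were low, at 21.2 ± 20.7 and 30.0 ± 20.7 normalized counts in the 7 controls (± SD) and 37.2 ± 26.5 and 29.4 ± 13.3 in the 6 PTU pups, and neither was called (limma adjusted p = 0.405 and 0.93). For *Acta2* the log2 fold change was 0.11, opposite in sign to the difference of the means.

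**Figure D4:**
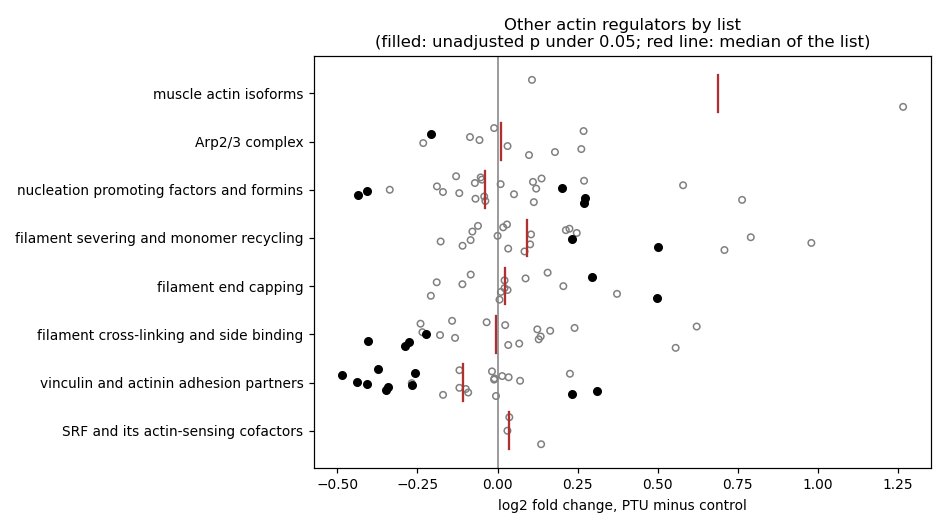
Log2 fold change (PTU minus control) of 119 other actin regulators in 8 lists, with 1 point per gene, filled where the unadjusted limma p is under 0.05, and a red line at the median of each list. Filled points of the adhesion partners lie mostly to the left (8 lower, 2 higher), with a list median of -0.11.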

How the data were processed

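RNA was measured in microdissected VZ of 7 control and 6 PTU exposed pups. Per the labels and methods, the authors trimmed reads with Trimmomatic, ran STAR 2.7.8a against mRatBN7.2 and estimated counts with the Partek expectation/maximization model. The deposited values are a signal that is never negative: estimated counts divided by median ratio size factors. The authors' own comparison columns (p-values, ratios, group means) were not used. Reads were estimated from the step between low values, and because 88.8 to 90.5% of values from 20 to 150 were whole multiples of it (within 0.05), short of 95%, no count model was fitted.

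Rows with a mean of at least 10 (14606 of 14716) were put on the log2(normalized count + 1) scale, on which changes of low rows are understated, and compared with limma 3.58.1 in R 4.3.3 (variance trend, Benjamini-Hochberg adjustment over all rows, threshold 0.05). Rows and ratios were also compared with an exact permutation test (two-sided, smallest p 0.000583). Correlations used 100000 permutations within groups, with batch not stated in the labels. Intervals of ratios assume equal spread in both groups. Tests were checked on simulated data. Other steps ran in Python 3.11.15 (scipy 1.17.1, numpy 2.4.6, pandas 2.3.3) and figures were drawn with matplotlib 3.10.9. Members, lists and ratios were chosen with earlier results of these data known. Named genes are all members, the 3 smallest p-values of each list, and the 5 rows most like *Actb* and *Actg1*. Of these, 1 gene is not reported here. Alternatives covered pseudocounts, filters, scaling, summed rows, weights, variance trend, voom on estimated reads, a replicate block and each pup left out. The rows have transcript identifiers, while the methods name a RefSeq annotation.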

Additional observations from a re-analysis of the deposited data

Results flagged for a closer look

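Within a group, the pup at one end was tested for a gap to its nearest neighbour that is large beside the whole range of the group, on log2 values. This was done for 26 groups of 6 or 7 pups (each member row, the further *Actg1* row and the 3 ratios), of which 3 were marked, and chance marks about 1 in 20. The *Actb* to *Actg1* ratio of PTU pup 2 stood above the other PTU exposed pups by a gap of 0.709 of the range. *Vcl* in PTU pup 1 stood above the rest of its group by 0.736 of the range. *Tmsb10* in control pup 5 stood below the other control pups by 0.596 of the range. Without control pup 5, the log2 fold change of *Tmsb10* was 0.36, the lowest over all pups left out.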

How the results depend on the processing

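Over the 25 alternatives, 0 of the 9 members were called in limma. The count of called rows among all rows was 40 with pups weighted by quality, 18 with the replicate number as a block, and from 0 to 179 with 1 pup left out (7 without control pup 6, 179 without PTU pup 2), and 0 under the other alternatives. The count of other actin regulators at an unadjusted p under 0.05 was 10 with the same total over all rows (8.4%, against 11.4% of all rows). With 1 pup left out it ran from 17 without PTU pup 1 (14.3%, against 14.3%) to 37 without PTU pup 2 (31.1%, against 20.5%). Scaling to the same total over named rows gave 24, as in the report. The log2 fold change of *Actb* was 0.15 with quantile normalization and 0.22 with the same total over all rows, where the median of all rows was 0.20. That of *Actb* turned to -0.0079 with the block and lay between -0.035 and 0.043 with 1 pup left out (-0.035 without control pup 5, -0.0079 without control pup 7, -0.013 without PTU pup 2). Those of *Actn1*, *Actn4* and *Vcl* turned to 0.012, 0.13 and 0.041 with the same total over all rows. *Actg1*, *Tmsb10*, *Cfl1*, *Pfn1* and *Pfn2* kept a positive log2 fold change under every alternative, with smallest adjusted p-values in limma of 0.0558 (*Actg1*, without PTU pup 2) and 0.0629 (*Tmsb10*, replicate block). The *Actb* to *Actg1* difference kept its sign under its 18 alternatives. It shrank to -0.092 with quantile normalization, added after seeing the data, which ended the call (exact permutation, adjusted p = 0.602). It was -0.32 to -0.23 with 1 pup left out, but 10 of these 13 ended the call (exact permutation, adjusted p up to 0.0833). It was -0.28 with the block, where the adjusted p was 0.0938 (exact sign-flip p = 0.0312, the smallest that 6 pairs allow). With the other ratios at a sign-flip p of 0.4375, the block could not have kept the call. The replicate numbers belong to pups of different litters. Deviations from the group means correlated above 0.1 in 4 of 6 same-numbered pairs, short of all 6, so the numbers were not taken as pairs, and 4 of 12 pups correlated best with their own number. The block changed no call of a member or of the other ratios. The further *Actg1* row and the muscle actins have low values, and how depth limits them was not tested.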
